A study of Homo sapiens with 9 samples.

Results

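The genes described here are the cytokines IL11, IL6 and LIF, their receptor chains IL11RA, IL6R, IL6ST, OSMR and LIFR, the transcription factor STAT3 and its feedback inhibitor SOCS3. These 10 genes were chosen by symbol from 31080 reference genes or joined sets of genes, and all 10 were among the 21048 genes tested. IL11 was picked because its level was much lower in Cyclin K depleted cells in these same libraries, so its values against scrambled siRNA are a description with no test. The other 9 were taken as members of the same signalling family. Of the 10, 9 had a value of their own. IL11RA shared a feature with its neighbour GALT, an enzyme of galactose metabolism, and the 2 genes could not be told apart, so its value is written GALT|IL11RA.

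A549, a human lung adenocarcinoma cell line, was transfected for 48 h with scrambled siRNA (siCtrl) or with 1 of 2 siRNAs against Cyclin K, called siCyclin K#1 and siCyclin K#2. Each group had 3 libraries, 9 in all, from samples described as independent. The sources used here do not say whether these were separate cultures, so the p-values measure the spread between these libraries. Values are FPKM, fragments scaled to gene length and library depth, which allows levels of different genes to be compared. Differences were tested with limma on log2(FPKM + 0.1), and its p-values were adjusted by the method of Benjamini and Hochberg over all 21048 genes. In bulk RNA, fewer cells that express a gene and less RNA per cell cannot be told apart.

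Cytokines of the IL6 family signal through gp130, the shared receptor chain encoded by IL6ST. IL6 and IL11 first bind IL6R and IL11RA, which give specificity, and then assemble gp130 into a signalling complex, whereas LIF pairs gp130 with LIFR and oncostatin M pairs it with OSMR or LIFR. Janus kinases on these receptors phosphorylate STAT3, which enters the nucleus and activates genes including SOCS3, whose product dampens the signal. In epithelial tumours including lung adenocarcinoma, IL11, IL6 and LIF are known as growth and survival signals, and IL11 is a known target of TGF-beta and of AP-1, the dimer of JUN and FOS family proteins.

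The sequence upstream of IL11 is shown because IL11 had the largest log2 difference from siCtrl among the 10 genes with each siRNA. It is the 250 bases before the RefSeq start on GRCh38.p14, chr19:55370464-55370713, minus strand, read 5′ to 3′ in the direction of transcription, and the capitals mark a match to the AP-1 letters TGANTCA that begins 96 bases before the start.
IL11: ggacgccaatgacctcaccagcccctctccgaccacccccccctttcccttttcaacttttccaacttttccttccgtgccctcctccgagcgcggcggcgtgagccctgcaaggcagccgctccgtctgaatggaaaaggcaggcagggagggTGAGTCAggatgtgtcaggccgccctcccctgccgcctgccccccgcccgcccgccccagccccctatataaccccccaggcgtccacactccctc
RefSeq promoters of 300 bases (250 before and 50 after the start) were found for 9 of the 10 genes, all but LIF. Both strands were searched for AP-1 (TGANTCA), CRE (TGACGTCA), STAT (TTCNNNGAA), NF-kB (GGGNNTTCC) and the TATA box (TATAAA), which occur in 7.76%, 1.98%, 7.88%, 6.60% and 11.9% of 27305 promoters. AP-1 matches occurred in IL11, IL6R and OSMR, NF-kB matches in OSMR and STAT3, and a STAT match in LIFR. IL6, IL6ST, IL11RA and SOCS3 held none of these letters in this window. Only these exact letters were counted, so other forms of a site are missed. The IL6 window holds gggattttcc, with a longer gap between GGG and TTCC than the NF-kB letters allow. The RefSeq start can differ from the start of the gene coordinates given below. For SOCS3 the 250 bases are chr17:78360926-78361175, upstream of the gene's end at 78360077 (minus strand), so the sequence beside that end was not searched. For LIFR they are chr5:38595406-38595655, inside the gene at 38474963-38608354. The windows of IL6 (chr7:22726950-22727199) and IL11RA (chr9:34653663-34653912) also lie wholly inside their genes, at 22725884-22732002 and 34650702-34661892. A match is a description of the letters and not of a factor's binding.

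The second set of sequences are stretches of 27 bases in 3′ UTRs, shown because siRNAs can also act through the seed, bases 2 to 8 of the guide strand. The letters opposite the seed, in capitals, are TACAGGT for siCyclin K#2, taking the strand in the study's methods as the sense strand. In the longest annotated 3′ UTR of GENCODE 29, IL6ST held 2 such matches, beginning at bases 5053 and 5668 of 7641.
IL6ST, base 5053: agctttctatTACAGGTattgttagat
IL6ST, base 5668: gaatgataacTACAGGTtttaagtgct
IL11, OSMR and STAT3 held 1 each and the other 6 genes held none. For siCyclin K#1 the letters are GTGATAA, found once in IL6R and in none of the other 9, and for the scrambled siRNA TGTCACG, found in none of the 10. Of 13095 tested genes with an annotated 3′ UTR, 13.2%, 10.4% and 2.96% held at least 1 match for siCyclin K#2, siCyclin K#1 and the scrambled siRNA. Longer UTRs hold more matches, and the part of these matches in any change was not tested.

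The libraries held an estimated 31332720 to 33768460 reads each. CCNK, which encodes Cyclin K, was left at 11.5% of the siCtrl mean with siCyclin K#1 and 12.0% with siCyclin K#2. Of the epithelial markers KRT8 and KRT18 were abundant, at 49.7 to 105 and 69.8 to 91.0 FPKM over the 9 libraries, while EPCAM and KRT19 stayed at or below 0.279 and 0.108. The 5 epithelial markers analysed summed to 132 to 152 FPKM with siCtrl, 160 to 187 with siCyclin K#1 and 186 to 193 with siCyclin K#2. The 6 markers of A549 summed to 1360 to 1417 FPKM with siCtrl, 1665 to 1749 with siCyclin K#1 and 1646 to 1793 with siCyclin K#2. The 7 fibroblast markers summed to at most 6.49, 22.1 and 7.96 FPKM in the 3 groups. The higher sum with siCyclin K#1 came from COL1A1, at means of 2.03, 14.0 and 3.19, and LUM, at 0.356, 2.28 and 0.318, while COL1A2 stayed at or below 0.0111 and THY1 at or below 0.0265. The 4 leukocyte markers analysed summed to 30.9 to 31.8, 31.6 to 34.3 and 37.6 to 39.7, nearly all of it CD68, with PTPRC, the pan-leukocyte marker, at or below 0.00685. The endothelial markers summed to at most 0.275. The part of COL1A1 and LUM, which moved with siCyclin K#1, in the results was not tested.

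IL11 (chr19:55364389-55370463 on GRCh38, minus strand) was the second most abundant of the 10 genes in control cells and among the lowest after Cyclin K depletion with siCyclin K#1. The siCtrl libraries held 51.5, 52.2 and 55.5 FPKM. The siCyclin K#1 libraries held 3.49, 2.87 and 2.89 FPKM, and the siCyclin K#2 libraries 13.1, 11.7 and 14.5. All siCyclin K#1 libraries lay below all siCyclin K#2 libraries, and these below all siCtrl libraries. The means were 53.1 ± 2.13, 3.08 ± 0.356 and 13.1 ± 1.40 FPKM (SD, n = 3 each), so that 5.81% and 24.7% of the siCtrl level remained, 17.2-fold and 4.05-fold lower. These values came from 4442 to 4811, 240 to 302 and 1039 to 1235 estimated reads per library. The siCyclin K#2 mean was 4.25-fold the siCyclin K#1 mean, a log2 difference of -2.05 for siCyclin K#1 minus siCyclin K#2, given with no test because the values with both siRNAs led to the choice of IL11. The residual CCNK was nearly the same with both siRNAs, with a log2 difference of -0.06 (95% interval -0.28 to 0.17, limma adjusted p = 0.73).

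**Figure D1:**
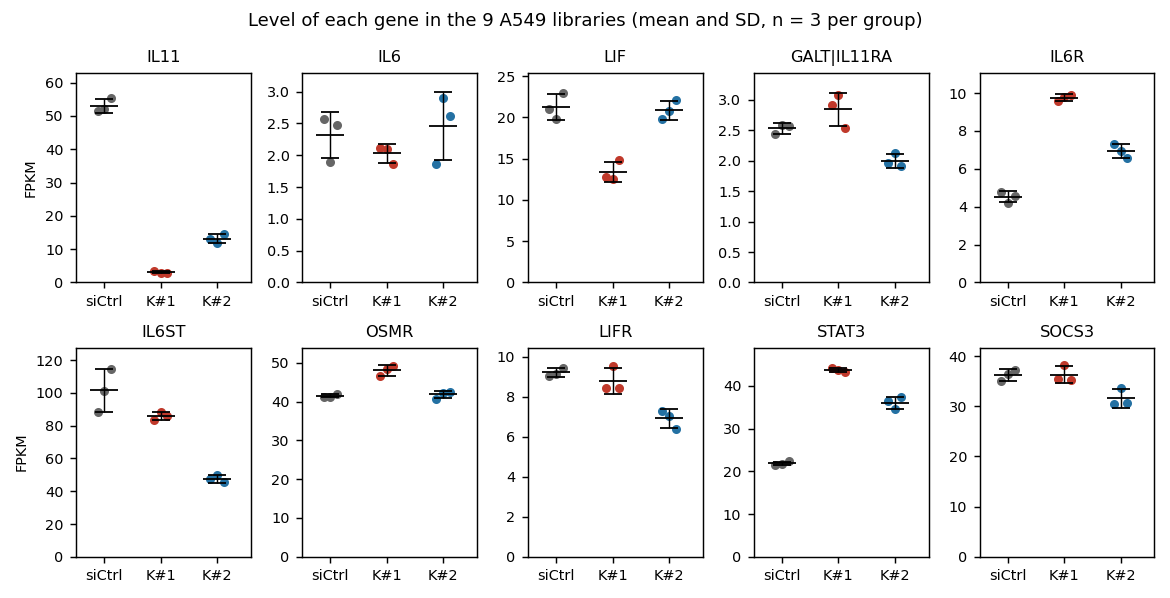
FPKM of each of the 10 genes (vertical axes, each from 0) in the 3 libraries of siCtrl (grey), siCyclin K#1 (K#1, red) and siCyclin K#2 (K#2, blue); long bars are means and whiskers SD, n = 3. IL11 sits at 51.5 to 55.5 with siCtrl, 2.87 to 3.49 with siCyclin K#1 and 11.7 to 14.5 with siCyclin K#2, while IL6 overlaps across all 3 groups.

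LIF, the ligand of LIFR and gp130, fell to 62.9% of siCtrl with siCyclin K#1, and its difference with siCyclin K#2 did not pass the test. LIF (chr22:30240447-30246851, minus strand) stood at 21.1, 19.8 and 22.9 FPKM with siCtrl, 12.8, 12.5 and 14.8 with siCyclin K#1, while siCyclin K#2 gave 19.8, 20.7 and 22.1. The siCyclin K#1 libraries lay below all others, and the siCyclin K#2 libraries overlapped with siCtrl. The log2 fold change was -0.67 with siCyclin K#1 (standard error 0.079, limma adjusted p = 0.00014) and -0.02 with siCyclin K#2 (limma adjusted p = 0.85, 95% interval -0.21 to 0.16). The siRNAs differed by -0.64 (limma adjusted p = 0.00040). Exons of LIF overlap the antisense genes LIF-AS1 and AC004264.1, which stood at 0 to 0.533 and 0.994 to 2.22 FPKM. The strand setting of the libraries is not given in the sources used here, so reads from overlapping antisense genes may not be separated.

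IL6 was the least abundant or next to least abundant of the 10 genes in each group. IL6 (chr7:22725884-22732002, plus strand) stood at 2.58, 1.90 and 2.47 FPKM with siCtrl, 2.12, 2.10 and 1.86 with siCyclin K#1, while siCyclin K#2 gave 1.86, 2.90 and 2.61. The 3 groups overlapped, and none of the 3 comparisons passed the test. The log2 fold changes were -0.17 with siCyclin K#1 (95% interval -0.57 to 0.22, limma adjusted p = 0.46) and 0.07 with siCyclin K#2 (-0.32 to 0.46, adjusted p = 0.80). The antisense gene AC073072.1, which shares exon sequence with IL6, stood at 0.110 to 0.434 FPKM. The intervals leave room for changes of moderate size, and only 124 to 199 reads per library lay behind these values. In siCtrl cells IL11 was 2.50 ± 0.122 times as abundant as LIF (SD, n = 3). In Cyclin K depleted cells it was 0.232 ± 0.0386 times as abundant with siCyclin K#1 and 0.627 ± 0.0541 times with siCyclin K#2. The order of the 2 cytokines was opposite to that in siCtrl cells in all 6 libraries. IL11 was chosen for its fall in these libraries, so this ratio and order are a description.

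IL6ST, which encodes gp130, was the most abundant of the 10 genes in every group and fell mainly with siCyclin K#2. IL6ST (chr5:55935095-55994993, minus strand) stood at 88.4, 101 and 115 FPKM with siCtrl, 83.4, 88.3 and 85.8 with siCyclin K#1, while siCyclin K#2 gave 47.2, 50.0 and 45.5. The siCyclin K#2 libraries lay below all others, while the highest siCyclin K#1 library, at 88.3, lay just under the lowest siCtrl library. The log2 fold change with siCyclin K#2 was -1.08 (standard error 0.084, limma adjusted p = 1.7e-05). With siCyclin K#1 it was -0.23 (95% interval -0.43 to -0.04), at the edge of the threshold (limma adjusted p = 0.0499), and this call was lost in 14 of 20 alternative settings, with adjusted p-values from 0.004 to 0.36 over the 20 (without siCtrl replicate 3 it was -0.14). The direct difference between the siRNAs was 0.85 (limma adjusted p = 0.00011). Exons of IL6ST overlap the antisense gene AC008914.1, at 0 to 0.232 FPKM. The 3′ UTR of IL6ST holds the 2 matches to the siCyclin K#2 seed shown above, whose part in this difference was not tested.

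IL6R, the chain that binds IL6, rose with both siRNAs. IL6R (chr1:154405193-154469450, plus strand) stood at 4.79, 4.21 and 4.56 FPKM with siCtrl, 9.58, 9.81 and 9.92 with siCyclin K#1, while siCyclin K#2 gave 7.30, 6.97 and 6.59. The 3 groups did not overlap. The log2 fold changes were 1.10 with siCyclin K#1 (standard error 0.062, limma adjusted p = 1.5e-06) and 0.61 with siCyclin K#2 (adjusted p = 8.3e-05), and siCyclin K#1 exceeded siCyclin K#2 by 0.49 (adjusted p = 0.00047).

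GALT|IL11RA, which includes the receptor of IL11 (chr9:34650702-34661892, plus strand), stood at 2.43, 2.59 and 2.58 FPKM with siCtrl, 2.92, 3.08 and 2.53 with siCyclin K#1, while siCyclin K#2 gave 1.96, 2.13 and 1.91. The siCyclin K#2 libraries lay below all others, and siCyclin K#1 overlapped with siCtrl. The log2 fold change was 0.15 with siCyclin K#1 (95% interval -0.05 to 0.36, limma adjusted p = 0.20) and -0.33 with siCyclin K#2 (adjusted p = 0.019). The second call was lost on leaving out siCtrl replicate 2 or 3 or siCyclin K#2 replicate 1 or 3, with adjusted p-values of 0.055 to 0.062 from limma. The siRNAs differed by 0.49 (limma adjusted p = 0.0035). Exons of IL11RA also share 410 bases with AL162231.3 on the same strand, which had no value of its own. They share 13 bases with CCL27 on the other strand, at 0.315 to 0.676 FPKM.

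The partner chains OSMR and LIFR each passed the test with 1 of the siRNAs. OSMR (chr5:38845858-38945596, plus strand), which serves oncostatin M and also IL31, stood at 41.3, 41.3 and 41.9 FPKM with siCtrl, 46.5, 48.4 and 49.3 with siCyclin K#1, while siCyclin K#2 gave 40.7, 42.3 and 42.5. All siCyclin K#1 libraries lay above all others. The log2 fold change was 0.21 with siCyclin K#1 (limma adjusted p = 0.00075) and 0.01 with siCyclin K#2 (95% interval -0.06 to 0.09, adjusted p = 0.83). Over all tested genes the median log2 fold change with siCyclin K#1 was 0.102, and median-ratio rescaling, which moved this median to -0.0017, left OSMR at 0.089 with an adjusted p of 0.077 from limma and turned its sign with siCyclin K#2 to -0.037. Exons of OSMR share 229 bases with RICTOR on the other strand, which stood at 5.83 to 7.51 FPKM.

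LIFR (chr5:38474963-38608354, minus strand) stood at 9.05, 9.17 and 9.46 FPKM with siCtrl, 8.44, 9.54 and 8.43 with siCyclin K#1, while siCyclin K#2 gave 7.31, 7.07 and 6.41. It fell with siCyclin K#2, by 0.41 on the log2 scale (limma adjusted p = 0.0015), and the siCyclin K#2 libraries lay below all others. With siCyclin K#1 the log2 fold change was -0.07 (95% interval -0.22 to 0.09, limma adjusted p = 0.45), and median-ratio rescaling gave -0.19 with an adjusted p of 0.042. Exons of LIFR overlap LIFR-AS1, at 0.0726 to 0.249 FPKM. In siCtrl cells IL6R stood at 0.490 ± 0.0359 times the level of LIFR, and in Cyclin K depleted cells at 1.11 ± 0.0767 times with siCyclin K#1 and 1.00 ± 0.0215 times with siCyclin K#2 (SD, n = 3).

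STAT3, the factor that gp130 activates, rose with both siRNAs. STAT3 (chr17:42313324-42388568, minus strand) stood at 21.6, 21.8 and 22.3 FPKM with siCtrl, 44.2, 43.7 and 43.4 with siCyclin K#1, while siCyclin K#2 gave 36.4, 34.5 and 37.3. The groups did not overlap, and the means were 200% and 165% of siCtrl. The log2 fold changes were 1.00 (standard error 0.036, limma adjusted p = 1.3e-07) and 0.72 (adjusted p = 1.5e-06), and siCyclin K#1 exceeded siCyclin K#2 by 0.28 (adjusted p = 0.00051). These are mRNA levels, and phosphorylation of STAT3 was not measured.

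SOCS3, a feedback inhibitor that STAT3 activates in many cells, passed the test with siCyclin K#2, where it fell. SOCS3 (chr17:78356778-78360077, minus strand) stood at 35.0, 36.4 and 37.3 FPKM with siCtrl, 35.4, 38.2 and 35.2 with siCyclin K#1, while siCyclin K#2 gave 30.4, 33.7 and 30.7. The siCyclin K#1 libraries overlapped with siCtrl and the siCyclin K#2 libraries lay below both. The log2 fold change with siCyclin K#1 was 0.0006 (95% interval -0.12 to 0.12, limma adjusted p = 0.998), and median-ratio rescaling gave -0.12. With siCyclin K#2 it was -0.20 (limma adjusted p = 0.016), a call lost in 4 of 20 alternative settings, among them the fits without siCtrl replicate 3, siCyclin K#2 replicate 1 and siCyclin K#2 replicate 3. The ratio of SOCS3 to STAT3 was 1.66 ± 0.0272 with siCtrl, 0.829 ± 0.0406 with siCyclin K#1 and 0.877 ± 0.0850 with siCyclin K#2 (SD, n = 3), and the ranges of the depleted groups lay below that of siCtrl.

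Counted together without IL11, 3 of 9 genes rose with siCyclin K#1 (IL6R, OSMR and STAT3) and 2 fell (LIF and IL6ST), beside 26.8% and 18.1% of all 21048 tested genes called higher and lower at an adjusted p under 0.05 from limma. With siCyclin K#2, 2 of 9 rose (IL6R and STAT3) and 4 fell (IL6ST, GALT|IL11RA, LIFR and SOCS3), beside 19.8% and 15.2% of all tested genes. Genes with higher levels were called more often. Of 11243 genes averaging 1 FPKM or more, as all 9 do, 7507 passed with siCyclin K#1 and 6434 with siCyclin K#2 in either direction. The median log2 fold change of the 9 was 0.0006 and -0.02, against 0.102 and 0.014 over all tested genes. No member of the 9 passed the rule in the study's methods, a fold change over 3 with an unadjusted p under 0.01, which 4.67% of all genes passed with siCyclin K#1 and 1.94% with siCyclin K#2. Both comparisons share the same siCtrl libraries. Between the siRNAs directly, 8 of the 9 genes differed: 7 were higher with siCyclin K#1 (IL6ST, GALT|IL11RA, IL6R, OSMR, LIFR, STAT3 and SOCS3) and 1 was lower (LIF), beside 17.1% and 12.3% of all tested genes, with a median difference of 0.28 against 0.0837. None of the 9 passed the fold rule between the siRNAs, which 1.53% of all genes passed.

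**Figure D2:**
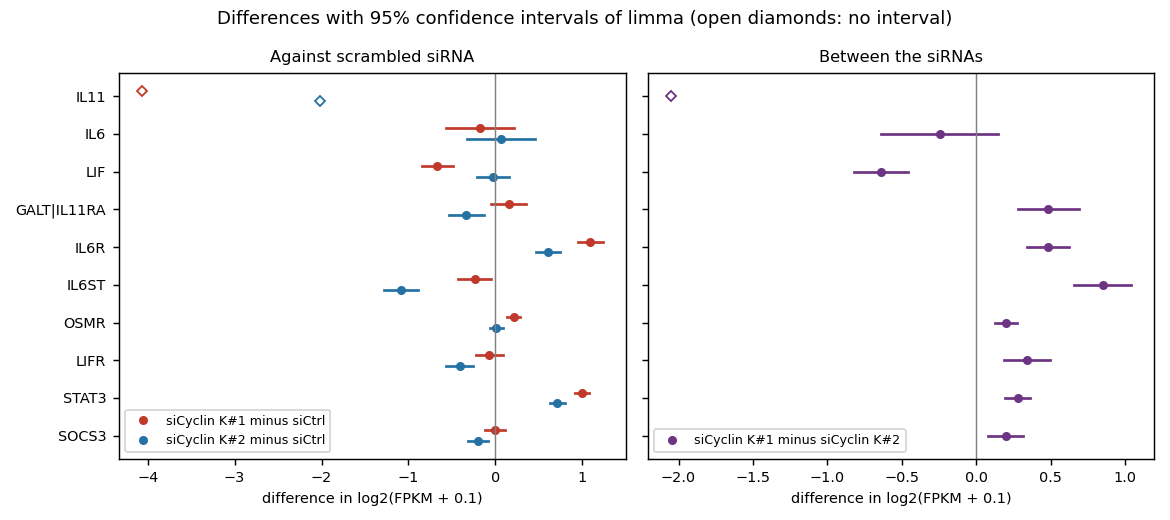
Differences in log2(FPKM + 0.1) for the 10 genes: on the left siCyclin K#1 (red) and siCyclin K#2 (blue) minus siCtrl, on the right siCyclin K#1 minus siCyclin K#2; points are limma estimates, lines 95% intervals, and open diamonds mark IL11, shown without interval because it was chosen by these values. STAT3 (1.00 and 0.72) and IL6R (1.10 and 0.61) lie right of 0 with both siRNAs, and IL6ST lies at -0.23 and -1.08.

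The order of levels also differed between groups. In siCtrl cells the order was IL6ST, IL11, OSMR, SOCS3, STAT3, LIF, LIFR, IL6R, GALT|IL11RA and IL6, where STAT3 and LIF overlapped, as did GALT|IL11RA and IL6. With siCyclin K#1 it was IL6ST, OSMR, STAT3, SOCS3, LIF, IL6R, LIFR, IL11, GALT|IL11RA and IL6, where IL11 and GALT|IL11RA overlapped. With siCyclin K#2 IL11 took the sixth place, between LIF and IL6R. The places of IL11 restate the values by which it was chosen. IL6R and LIFR overlapped with siCyclin K#2, as did IL6 and GALT|IL11RA.

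Other genes of the pathway were taken from 5 lists. Of their members CNTF, JAK2, HIF1A, SAA1, TGFB2 and ATF2 shared a feature with 1 or more other genes, so their values cover all genes of the feature. The counts below stand beside the shares given above for all tested genes, 26.8% higher and 18.1% lower with siCyclin K#1, while siCyclin K#2 had 19.8% higher and 15.2% lower. Genes averaging 1 FPKM or more were called more often, as given above, so these shares are low for lists of mostly expressed genes. Of 11 other ligands and receptors of the family, 6 were expressed enough to be tested, of which 2 rose and 0 fell with siCyclin K#1, and 1 rose and 2 fell with siCyclin K#2. IL31RA, which forms the IL31 receptor with OSMR, rose from 2.29 ± 0.0517 to 3.34 ± 0.138 and 6.13 ± 0.292 FPKM (SD, n = 3; log2 fold changes 0.53 and 1.38, limma adjusted p = 0.00014 and 8.9e-07). The medians of the list were 0.28 and -0.30, against 0.102 and 0.014 over all tested genes.

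Of 15 genes of the JAK-STAT core, 10 rose and 3 fell with siCyclin K#1, and 7 rose and 3 fell with siCyclin K#2, beside 26.8%, 18.1%, 19.8% and 15.2% of all tested genes in the same order. The medians were 0.46 and 0.21, against 0.102 and 0.014. JAK1, the main kinase on gp130, rose from 46.0 ± 2.17 to 97.0 ± 3.15 FPKM with siCyclin K#1 and to 55.5 ± 2.06 with siCyclin K#2 (SD, n = 3; log2 fold changes 1.07 and 0.27, limma adjusted p = 3.0e-07 and 0.0017). PTPN11, the phosphatase SHP2 that links gp130 to the RAS pathway, rose from 22.3 ± 0.949 to 36.0 ± 0.921 and 47.6 ± 1.82 FPKM. Its exchange factor partner SOS1 rose by 0.57 and 0.41 on the log2 scale. STAT5B rose by 0.80 and 0.96, and STAT4, at 0.460 FPKM with siCtrl, by 1.71 and 1.00.

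Of 18 inhibitors and sheddases, 8 rose and 4 fell with siCyclin K#1, and 3 rose and 4 fell with siCyclin K#2, beside 26.8%, 18.1%, 19.8% and 15.2% of all tested genes in the same order. The list medians of 0.03 and -0.03 compare with 0.102 and 0.014. ADAM10 and ADAM17, proteases that shed membrane IL6R, moved in opposite directions. ADAM10 rose from 12.2 ± 0.744 to 21.3 ± 0.987 and 14.0 ± 0.544 FPKM, and ADAM17 fell from 50.5 ± 1.22 to 39.9 ± 1.28 and 41.2 ± 0.629 (SD, n = 3). RHBDF2, which helps ADAM17 mature, rose by 1.24 on the log2 scale with both siRNAs. The phosphatase PTPN1 fell by 0.40 and 0.55, and SOCS5 fell by 0.15 with each siRNA.

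Of 31 known STAT3 targets and acute phase genes, 25 were tested. With siCyclin K#1 11 rose and 8 fell, and with siCyclin K#2 9 rose and 7 fell, beside 26.8%, 18.1%, 19.8% and 15.2% of all tested genes in the same order. The medians were 0.46 and 0.30 in the list and 0.102 and 0.014 over all genes. BCL3, a co-regulator of NF-kB, rose from 2.31 ± 0.0492 to 6.48 ± 0.216 and 4.09 ± 0.0893 FPKM (SD, n = 3). The transcription factor CEBPD rose by 1.81 and 0.94 on the log2 scale, the repressor BCL6 by 1.37 and 1.01, and FGL1, a secreted hepatokine, by 1.77 and 0.55. CCND1, which encodes Cyclin D1, fell from 72.5 ± 0.546 to 16.7 ± 0.329 and 20.7 ± 0.685 FPKM (limma adjusted p = 5.3e-09 and 2.1e-08). Genes of this list therefore moved in both directions.

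Of 24 genes known to induce IL11 or IL6, 22 were tested. With siCyclin K#1 10 rose and 6 fell, and with siCyclin K#2 10 rose and 4 fell, beside 26.8%, 18.1%, 19.8% and 15.2% of all tested genes in the same order. The medians were 0.27 and 0.28, those of all genes 0.102 and 0.014. FOSL1, the AP-1 subunit FRA1, fell from 115 ± 12.2 FPKM to 17.5 ± 0.999 with siCyclin K#1 and to 66.8 ± 6.74 with siCyclin K#2 (SD, n = 3), by 2.71 and 0.78 on the log2 scale (limma adjusted p = 1.1e-07 and 0.00025). Its difference between the siRNAs was -1.93 (limma adjusted p = 2.4e-06). Of the other JUN and FOS family genes in the list, JUN rose by 0.39 and 0.99 and JUND by 0.91 and 0.78, each past the test. FOSL2 differed by -0.07 with siCyclin K#1 (limma adjusted p = 0.37) and 0.44 with siCyclin K#2 (adjusted p = 0.00036). The part of AP-1 in the level of IL11 was not tested. TGFB1, SMAD3, IL1R1 and NFKBIZ rose with both siRNAs. TGFB1, the TGF-beta ligand, rose from 45.1 ± 1.28 to 90.0 ± 4.24 and 106 ± 4.82 FPKM, and SMAD3, a mediator of its signal, from 13.2 ± 0.511 to 41.5 ± 7.89 and 55.9 ± 0.701. IL1R1, the receptor of IL1, rose by 2.59 and 1.84 on the log2 scale, and NFKBIZ, an NF-kB co-regulator that supports IL6 transcription, by 1.91 and 0.97.

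**Figure D3:**
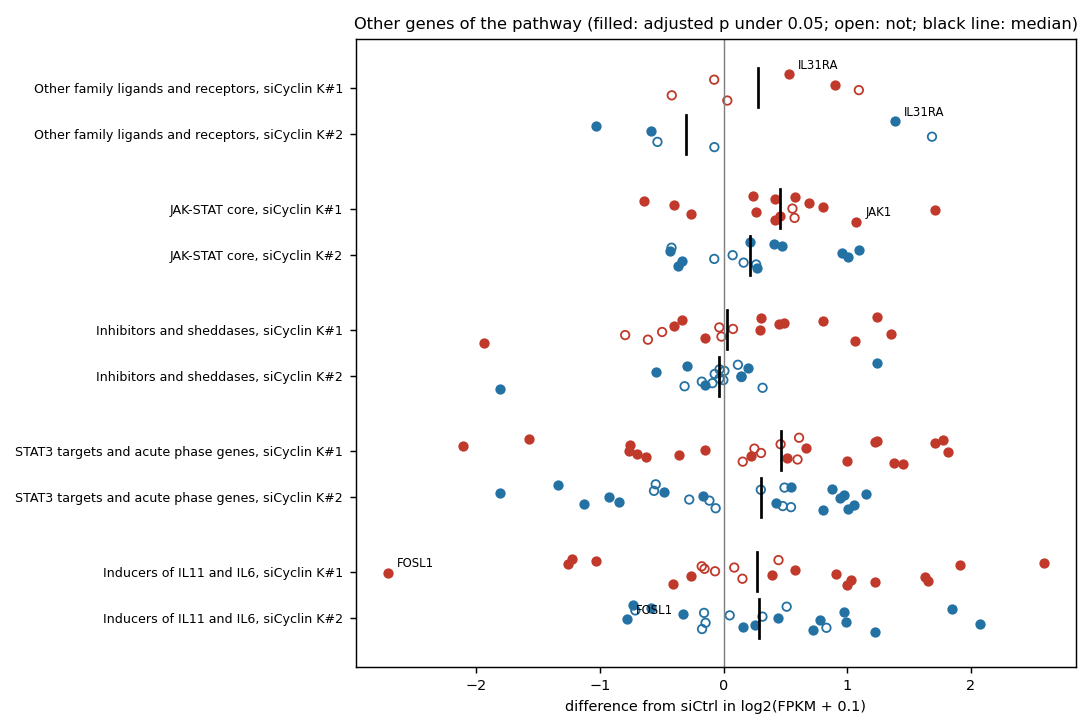
Differences from siCtrl in log2(FPKM + 0.1) for each tested gene of the 5 lists, 1 point per gene, with siCyclin K#1 in red and siCyclin K#2 in blue; filled points had an adjusted p under 0.05 from limma, open points did not, and black lines are list medians. FOSL1 lies at -2.71 with siCyclin K#1 and -0.78 with siCyclin K#2, while the medians of the JAK-STAT core are 0.46 and 0.21.

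The genes whose log2(FPKM + 0.1) followed IL11 most closely over the 9 libraries, among 11243 genes with a mean of at least 1 FPKM, were CDC20 (Pearson r = 0.999), TARS, COA4, SNHG16 and PRDX6 (r = 0.996). CDC20, an activator of the anaphase promoting complex, stood at 83.5 ± 1.92, 27.5 ± 0.584 and 49.0 ± 1.22 FPKM in the 3 groups. PRDX6, a peroxidase, stood at 123 ± 0.339, 92.1 ± 0.823 and 105 ± 0.911 (SD, n = 3). These genes shared the order of the 3 groups with IL11 but with smaller differences. The 9 points form 3 groups of 3 libraries, so that r mainly describes the group means, and no p is given.

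**Figure D4:**
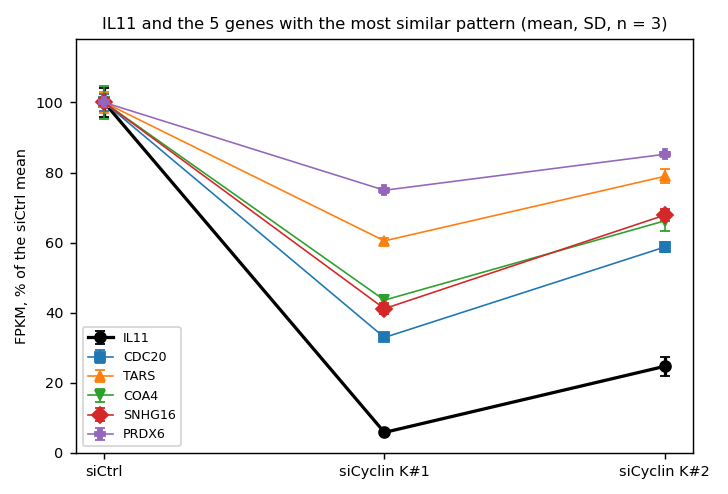
Mean FPKM as a percentage of the siCtrl mean (vertical axis) for IL11 and the 5 genes most like it in siCtrl, siCyclin K#1 and siCyclin K#2; whiskers are SD, n = 3, and lines only join the same gene. IL11 lies lowest, at 5.81% and 24.7%.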

How the data were processed

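RNA of A549 cells was measured in 9 libraries, 3 each of scrambled siRNA, siCyclin K#1 and siCyclin K#2, grouped by their titles. The authors deposited 1 FPKM value per feature and library, made with StringTie 1.3.3b per the labels; the aligner and the strand setting are not given in the sources used here. Features carried GRCh38 coordinates. Of 56252 features, 25125 named only a StringTie locus and were left out, and 1344 joined several reference genes. Where a reference gene had several features (47 cases), their FPKM were added. Low FPKM values were multiples of what 1 read is worth given the GENCODE 29 exon length, which gave the depth; 97.3% of values under 20 reads came out whole within 0.05, and the files do not show whether this unit is a fragment or 1 read of a pair. Read numbers were lowest for IL6 and for IL11 with siCyclin K#1.

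Genes reaching 0.1 FPKM in 3 or more libraries entered the test. R 4.3.3 and limma 3.58.1 (lmFit, then eBayes with trend) compared log2(FPKM + 0.1) between 3 groups with a common estimate of the spread, and the adjusted p threshold was 0.05. A fold change on this scale understates that of genes with low values. Tested on simulated data of 21048 genes for siCyclin K#1 against siCtrl, the fit recovered 197 of 200 genes changed by 2 on the log2 scale and called 6 unchanged genes. The changed genes were drawn from those with a siCtrl mean above 0 on this scale, and noise was independent between genes. It thus does not gauge the recovery of smaller changes, or false calls where many genes change, as here. Replicates were not duplicates: their reads differed by a chi-square of 15.4 to 19.9 per degree of freedom. The 10 genes, the 5 pathway lists, the marker lists and the motifs were chosen with earlier results of these data known. From each list at most 5 genes were named, those with the largest mean absolute log2 fold change over both siRNAs among those averaging 1 FPKM or more and called in the same direction by each siRNA at the adjusted p threshold. JUN, JUND and FOSL2 were given besides, as the other JUN and FOS family genes of their list. The alternatives were other pseudocounts and filters, quantile normalization, a replicate block, median-ratio rescaling, eBayes without trend, a fit of only the groups compared, the highest row of each gene, limma-voom on the recovered reads, the fold rule of the study, and leaving out each of the 9 libraries. Counts out of 20 alternatives for a single gene leave out the fold rule, which none of the 9 genes other than IL11 passed. The sequence around some of the seed matches is not reported here.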

Additional observations from a re-analysis of the deposited data

Results flagged for a closer look

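CCNK mRNA stood at 11.5% of siCtrl with siCyclin K#1 and 12.0% with siCyclin K#2, and these libraries do not measure Cyclin K protein. Of the 9 genes other than IL11, 8 differed between the siRNAs when siCyclin K#1 was compared with siCyclin K#2 directly. The differences, as siCyclin K#1 minus siCyclin K#2 on the log2 scale, were -0.64 for LIF, which was lower with siCyclin K#1, and 0.85 for IL6ST, 0.49 for IL6R, 0.49 for GALT|IL11RA, 0.34 for LIFR, 0.28 for STAT3, 0.20 for OSMR and 0.20 for SOCS3, which were higher. Each of the 8 had a limma adjusted p under 0.05, beside 17.1% of all tested genes higher and 12.3% lower by the same test. The libraries of the 2 siRNAs did not overlap for any of the 8 genes, and the SOCS3 call was lost in 5 of 20 alternative settings. IL11, whose values with both siRNAs led to its choice, differed by -2.05, which is a description. Why the siRNAs differ was not tested.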

How the results depend on the processing

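Without IL11, 5 of 9 genes passed the test with siCyclin K#1 and 6 of 9 with siCyclin K#2, beside 9435 and 7353 of all 21048 tested genes. A fit of only the 11243 genes averaging 1 FPKM or more gave 5 and 6 as well, beside 7507 and 6434 of those genes. Between the siRNAs 7 of 9 were higher and 1 lower with siCyclin K#1, beside 17.1% and 12.3% of all genes. Leaving out 1 library at a time gave 4 to 5 and 4 to 6 against siCtrl, beside 8584 to 9325 and 6472 to 7250 of all genes. With the fold rule of the study in place of the adjusted p it was 0 in each comparison, beside 4.67%, 1.94% and 1.53% of all genes. A replicate block gave 4 and 6 against siCtrl, beside 9062 and 6947 of all genes, and IL6ST was lost for siCyclin K#1. Same-numbered libraries did not deviate together (correlations from -0.071 to 0.038 over 9 pairs). These values cannot tell whether same-numbered samples were handled together.

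Of 540 values of the 9 genes other than IL11 under an alternative, 501 kept direction and side of the threshold, 28 lost the call, 1 gained it and 10 changed sign, none of the latter past the test. Direction could not change under the filters, eBayes without trend, the replicate block or the fit of only the groups compared. The same holds for the highest row of each gene and for leaving out a library of the group not compared. These settings could move only the adjusted p. The sign changes were GALT|IL11RA with siCyclin K#1 under quantile normalization (-0.017), IL6 with siCyclin K#2 under quantile normalization (-0.023), SOCS3 with siCyclin K#1 and OSMR with siCyclin K#2 under median-ratio rescaling (-0.12 and -0.037), and values on leaving out 1 library. These leave-outs ranged from -0.038 to 0.021 for SOCS3 with siCyclin K#1, from -0.060 to 0.25 for IL6 with siCyclin K#2 and from -0.076 to 0.031 for LIF with siCyclin K#2. The cause was not tested. STAT3, IL6R and, with siCyclin K#2, IL6ST and LIFR kept their calls in all 20 alternatives, which leave out the fold rule, as did LIF with siCyclin K#1. The 3 libraries per group and the low read numbers of IL6 limit what could be detected.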
